A study of Mus musculus with 17 samples.

Results

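The nuclear genes of respiratory complex I were taken as all gene symbols of the 3 deposited count tables that start with Nduf, leaving out symbols that contain -ps, which mark pseudogenes. The rule gave 48 genes of 25239 in the tables. The study sequenced bulk RNA of 2 prefrontal regions, the orbitofrontal cortex (OFC) and medial prefrontal cortex (mPFC), in mice of the DAT-cre line, in which Cre is placed under the promoter of the dopamine transporter. All 17 libraries come from that line, so every group carries it. The mice were sorted by their behaviour in an addiction protocol called oDASS into perseverers (addicted) and renouncers (non-addicted). After oDASS the tissue was dissected, which gave 3 perseverer and 3 renouncer libraries of the OFC and 3 perseverer and 3 renouncer libraries of the mPFC. Before oDASS the OFC was sampled as brain tissue imprints, which gave 2 perseverer and 3 renouncer libraries. Whether replicates are separate animals, and how old the mice were, is not stated in the labels. The p-values below therefore measure only the spread between these samples. In bulk samples, fewer cells of a type and less RNA per cell cannot be told apart.

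Complex I, the NADH dehydrogenase of the inner mitochondrial membrane, passes electrons from NADH to ubiquinone and pumps protons across the membrane. It has the shape of an L, with a matrix arm that holds the flavin and the iron-sulfur clusters and a membrane arm that holds the proton pumps. The catalytic core is built from nuclear and mitochondrial genes, and it is surrounded by nuclear-encoded accessory subunits. A set of assembly factors builds the complex and is absent from the finished enzyme. Neurons make most of their ATP by oxidative phosphorylation, which starts here, and mutations in its genes are a common cause of mitochondrial encephalopathy in humans.

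By role, the 48 genes hold 7 core subunits, 9 accessory subunits of the matrix arm and 19 accessory subunits of the membrane arm. Ndufab1, the mitochondrial acyl carrier protein, is present in both arms. The 8 assembly factors are Ndufaf1 to Ndufaf8. Ndufa4 carries the family name but is a subunit of complex IV, and Ndufa4l2 is its paralogue. No role was given to Ndufa11b and Ndufb4c, for which the GENCODE M21 annotation holds no coding transcript. A transcript of Ndufb4c also matches part of Ndufb4. The rule on symbols therefore does not ensure that all 48 genes code for protein. The genes lie on 17 chromosomes, and all 48 were matched by symbol to RefSeq (GRCm38.p6). They are short genes: their median deposited length was 942.5 bases, against 2259 bases over all 25239 genes, and 27 of the 48 had at most 1000 bases. Median length was 1608 bases for the core subunits, 1040 bases for the matrix arm accessory subunits, 687 bases for the membrane arm accessory subunits and 1465 bases for the assembly factors.

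Several rows can hold reads of other genes. Ndufa13, Ndufaf2 and Ndufb6 each have 20% or more of their exon sequence inside another annotated gene, and the library kits do not keep the strand. In 12 of the 48 genes a transcript of another gene matched over at least 200 bases at 95% identity or more. For Ndufa13, Ndufb4, Ndufb5 and Ndufb6 that other gene is itself in the tables under the same symbol. Copies that the tables hold under another symbol were not found this way. Ndufs5 and the pseudogene Ndufs5-ps had nearly the same counts in every library, 13640 and 13850 summed over all libraries, with a largest difference of 48 counts in a library, or of 12.2% in an imprint and 4% in the dissections. Values of Ndufs5 are therefore uncertain. The deposited length exceeded the longest GENCODE M21 coding transcript 2.9 times for Ndufa11, 2.34 times for Ndufaf5 and 2.27 times for Ndufa7, which lowers their level per length. It was shorter than that transcript for others, at 0.214 times for Ndufb2, 0.331 times for Ndufc1 and 0.468 times for Ndufb4, which raises theirs if the long transcript is the one expressed. The length ranges used below are uncertain for these 6 genes.

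Promoter windows of 300 bases, from 250 before to 50 after the transcription start (RefSeq, GRCm38.p6), were given for 40 of the 48 genes. They were searched on both strands for 4 motifs of factors known to act on mitochondrial genes. The NRF1 motif, a GC-rich stretch, was found in 9 of the 40 promoters (22.5%), against 5.19% of all 27025 genes with a promoter. The YY1 motif AAGATGGCG was found in 6 (15%), against 1.64% of all genes. The ETS motif CCGGAAGT, which GABPA binds, was found in 1 (2.5%), against 4.31%, and the ERR motif TCAAGGTCA in 0, against 0.466%. The motifs do not overlap each other in the windows printed here. A match is a description of the letters and not evidence of binding. Printed are 4 windows that hold a match, with the matched letters in capitals. Ndufaf5, Ndufaf4 and Ndufs4 are named in the results below, and Ndufs6 was chosen for its promoter. The window of Ndufaf5 (chr2:140170396-140170695, plus strand) and that of Ndufaf4 (chr4:24897833-24898132, plus strand) hold NRF1 matches. The window of Ndufs4 (chr13:114388045-114388344, minus strand) holds a YY1 match, and that of Ndufs6 (chr13:73328433-73328732, minus strand) holds a match of each.
Ndufaf5: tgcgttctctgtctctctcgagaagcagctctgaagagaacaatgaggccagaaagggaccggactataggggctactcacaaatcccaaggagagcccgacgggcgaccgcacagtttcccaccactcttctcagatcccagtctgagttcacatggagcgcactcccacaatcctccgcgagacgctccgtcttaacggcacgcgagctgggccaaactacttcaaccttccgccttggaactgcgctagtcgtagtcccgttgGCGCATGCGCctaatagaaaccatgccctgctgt
Ndufaf4: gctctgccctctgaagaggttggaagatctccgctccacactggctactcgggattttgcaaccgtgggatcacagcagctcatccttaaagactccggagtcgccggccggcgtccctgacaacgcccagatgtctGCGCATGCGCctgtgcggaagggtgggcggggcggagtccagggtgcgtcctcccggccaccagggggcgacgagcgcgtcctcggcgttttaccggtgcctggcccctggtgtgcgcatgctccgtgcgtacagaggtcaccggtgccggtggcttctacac
Ndufs4: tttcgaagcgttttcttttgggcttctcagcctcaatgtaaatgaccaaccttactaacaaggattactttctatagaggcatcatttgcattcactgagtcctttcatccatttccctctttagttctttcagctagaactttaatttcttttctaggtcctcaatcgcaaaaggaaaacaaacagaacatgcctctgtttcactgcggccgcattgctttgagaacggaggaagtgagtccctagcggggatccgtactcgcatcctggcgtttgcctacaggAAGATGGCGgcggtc
Ndufs6: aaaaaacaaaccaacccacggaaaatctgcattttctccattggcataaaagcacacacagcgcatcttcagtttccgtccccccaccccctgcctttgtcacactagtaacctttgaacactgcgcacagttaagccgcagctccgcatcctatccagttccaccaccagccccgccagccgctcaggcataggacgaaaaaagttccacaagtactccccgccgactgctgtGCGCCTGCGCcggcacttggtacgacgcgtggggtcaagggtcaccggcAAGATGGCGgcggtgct

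The dissections had 12392731 to 20945108 counts per library, of which the 48 genes took 0.926% to 1.77% of the counts outside haemoglobin genes. The imprints had 8960549 to 10662666 counts, but haemoglobin took 29.7% of them in renouncer replicate 1 and 85.4% to 90.7% in the other 4 libraries. Only 980536 to 1306627 counts were left there for all other genes, and the 48 genes had 3857 to 10884 counts in those 4 libraries. That was 0.387% to 1.01% of the counts outside haemoglobin genes, and 0.811% in imprint renouncer replicate 1. The labelled tissue was brain, and the summed level of 8 neuronal markers was 3233 to 4989 CPM (counts scaled to library size, after TMM scaling of all libraries together) in the dissections and 1134 to 2203 CPM in the imprints. Blood markers were present in the imprints: 4 platelet markers summed to at most 2.94 CPM in the dissections and to 833 to 3421 CPM in the imprints. After TMM scaling 9 red cell markers summed to 218948 to 1.39e+07 CPM in the imprints. CPM of the imprints are therefore not shares of a library's counts, and their comparison with the dissections rests on this scaling.

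Levels per gene length are given as RPKM, CPM divided by the deposited length in kilobases. The order of the 48 genes was much alike in all 6 groups, with Spearman correlations of the group means between 0.967 and 0.998 (n = 48 genes, which share libraries and lengths). Ndufa4 had the highest level in the dissections: it averaged 848 ± 176 RPKM in OFC perseverers and 1093 ± 406 RPKM in OFC renouncers, and 746 ± 240 RPKM in mPFC perseverers and 975 ± 326 RPKM in mPFC renouncers (SD, n = 3 each). Its paralogue Ndufa4l2 averaged between 0.62 and 0.89 RPKM in every group. Ndufb9, a LYR-motif subunit of the membrane arm, came next with 800 ± 240 RPKM in OFC perseverers and 1009 ± 445 RPKM in OFC renouncers (SD, n = 3 each). The ranges of these genes over the libraries overlap, so their order is not separated beyond the spread. Ndufa3 is a single-pass subunit of the membrane arm and the shortest gene tested, at 351 bases. It had the highest group mean in the perseverer imprints, 1173 RPKM. In the renouncer imprints Ndufa3 averaged 1058 RPKM, behind Ndufb9 with 1105 RPKM.

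The core subunits were not at equal levels. Ndufs7, which carries the last iron-sulfur cluster before ubiquinone, averaged 170 RPKM in OFC perseverers and 174 RPKM in OFC renouncers. Ndufs1, the large subunit with several iron-sulfur clusters and the longest of the core genes, averaged 34.0 RPKM in OFC perseverers and 35.5 RPKM in OFC renouncers. Ndufv2 and Ndufv1 of the NADH-binding module and Ndufs8 lay between them. Ndufs3 had 43.2 RPKM in OFC perseverers and 47.1 RPKM in OFC renouncers. Assembly factors had low levels, with group means of 4.58 to 43.2 RPKM in the dissections, lowest for Ndufaf4, the longest of the 48 genes at 3632 bases, and highest for Ndufaf8. Ndufab1 averaged 8.95 RPKM in OFC perseverers and 9.87 RPKM in OFC renouncers. Ndufa11b, the shortest gene at 264 bases, had 0 to 6 counts in any library and Ndufb4c had 0 to 11, and neither passed the filter on low counts.

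**Figure D1:**
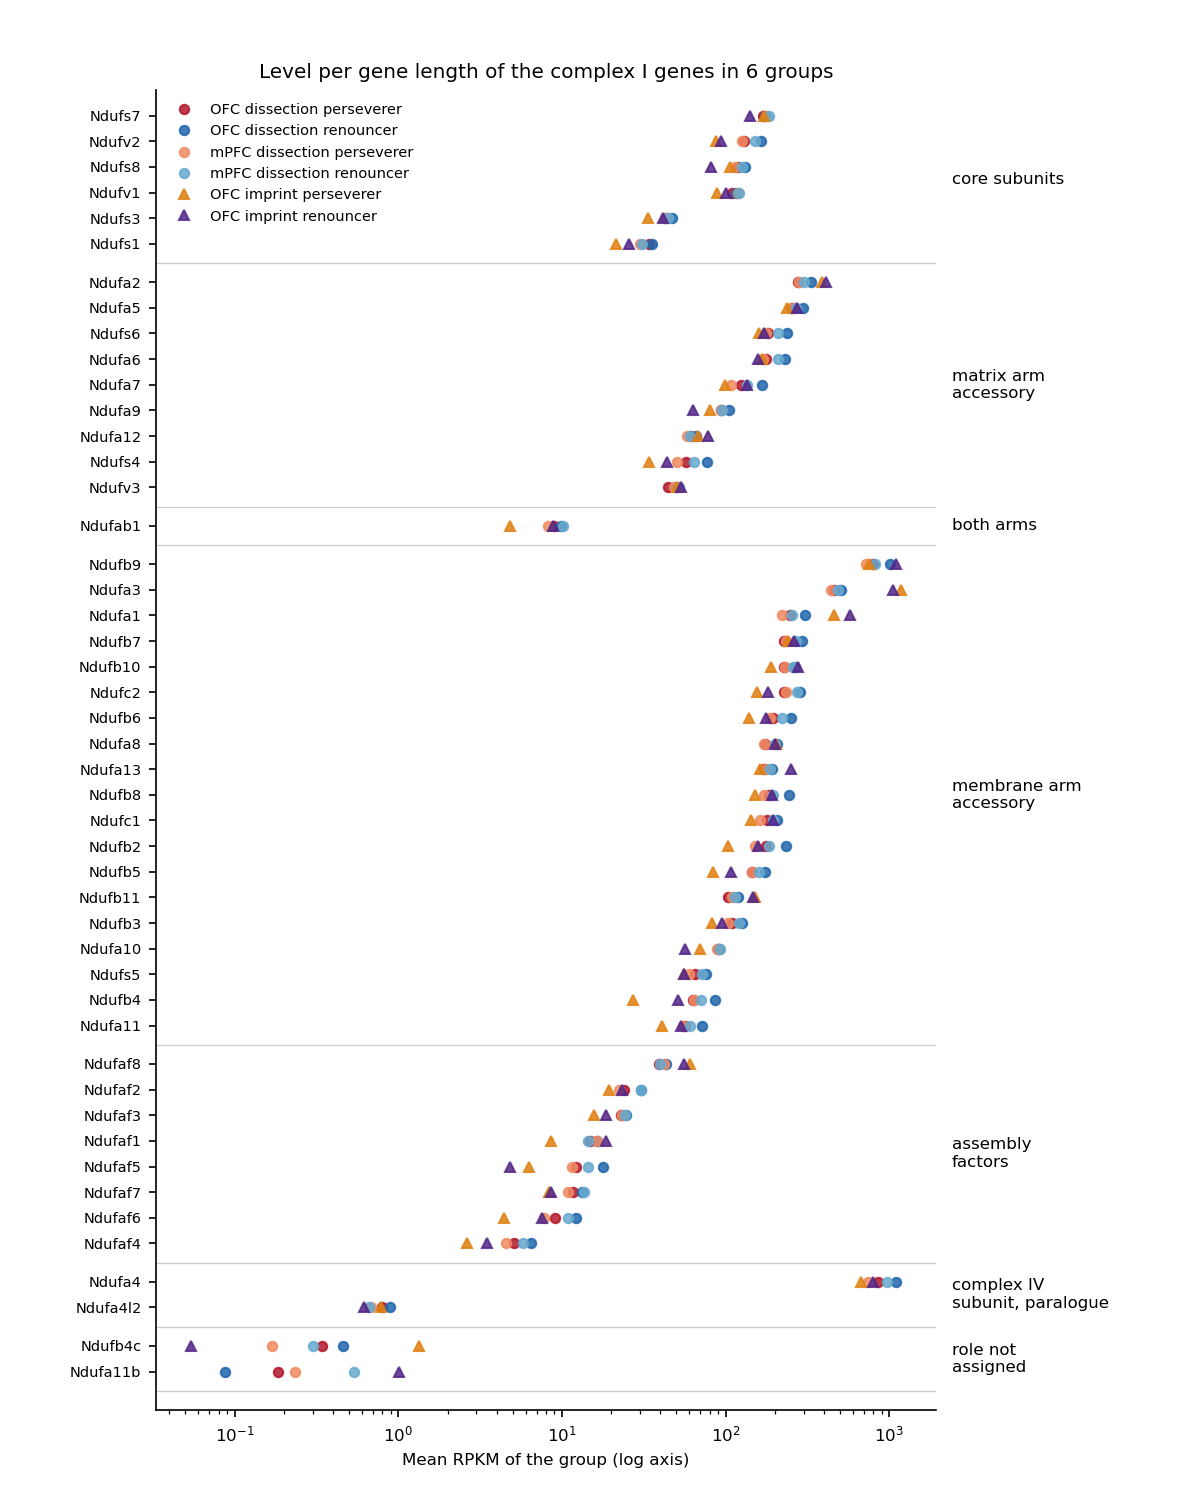
Group means of RPKM (log axis) for the genes reported here, ordered by role and then by level, with circles for the 4 dissection groups and triangles for the 2 imprint groups; a mean of 0 (Ndufa11b in imprint perseverers) is not drawn. Ndufa4 and Ndufb9 lie near 1000 RPKM, the assembly factors at or below 60.98 RPKM, and Ndufa4l2 below 1 RPKM in all groups.

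Libraries of the same group differed widely in the level of the family. Summed over the 48 genes it was 5457, 4843 and 6640 CPM in the OFC perseverers, against 4784, 6742 and 8978 CPM in the OFC renouncers. In the mPFC it was 4894, 4537 and 6796 CPM in the perseverers, against 5394, 5210 and 7821 CPM in the renouncers. The imprints had 5152 and 5310 CPM in the perseverers, against 4137, 5462 and 8740 CPM in the renouncers. Renouncer replicate 3 was the highest library of each table, and the ranges of the groups overlap in all 3 tables. Of the 46 genes tested, 41 had their highest CPM of the 6 OFC dissections in renouncer replicate 3 and 24 their lowest in renouncer replicate 1. In the mPFC dissections, 39 of 46 were highest in renouncer replicate 3 and 32 were lowest in perseverer replicate 2.

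The genes did not vary equally. Over the 12 dissections the highest library held 1.152 times the CPM of the lowest for Ndufs7 and 1.30 times for Ndufs3. The same ratio was 3.01 for Ndufb4, a short membrane arm subunit, and 3.15 for the assembly factor Ndufaf5, which in human cells hydroxylates the core subunit encoded by NDUFS7. Its median was 1.45 over the 7 core subunits, 2.19 over the 9 matrix arm accessory subunits, 1.87 over the 19 membrane arm accessory subunits and 1.85 over the 8 assembly factors. As a result the core subunits made up 13.6% to 19.98% of the 48 genes' counts in the dissections. Ndufs1 stayed between 79.0 and 120.9 CPM while Ndufb9 lay between 353 and 994 CPM, so that their ratio of counts ran from 3.17 to 10.1.

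Libraries also differed in how levels changed with gene length over all well expressed genes. For each library a length trend was computed as the Spearman correlation between gene length and a gene's deviation from its mean over the table's libraries, for genes whose mean log2 CPM exceeded 4. A positive value means that long genes are high in that library. It was 0.25, 0.37 and -5.1e-04 in the OFC perseverers, against 0.29, -0.36 and -0.42 in the OFC renouncers. In the mPFC it was 0.33, 0.35 and -0.04 in the perseverers, against -0.08, -0.17 and -0.38 in the renouncers. In both dissection tables the library with the highest sum of the 48 genes, renouncer replicate 3, had the lowest trend, while the order of the other libraries differed between the measures. What part the length trend has in the levels of the 48 genes was not tested by any measurement outside the counts.

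**Figure D2:**
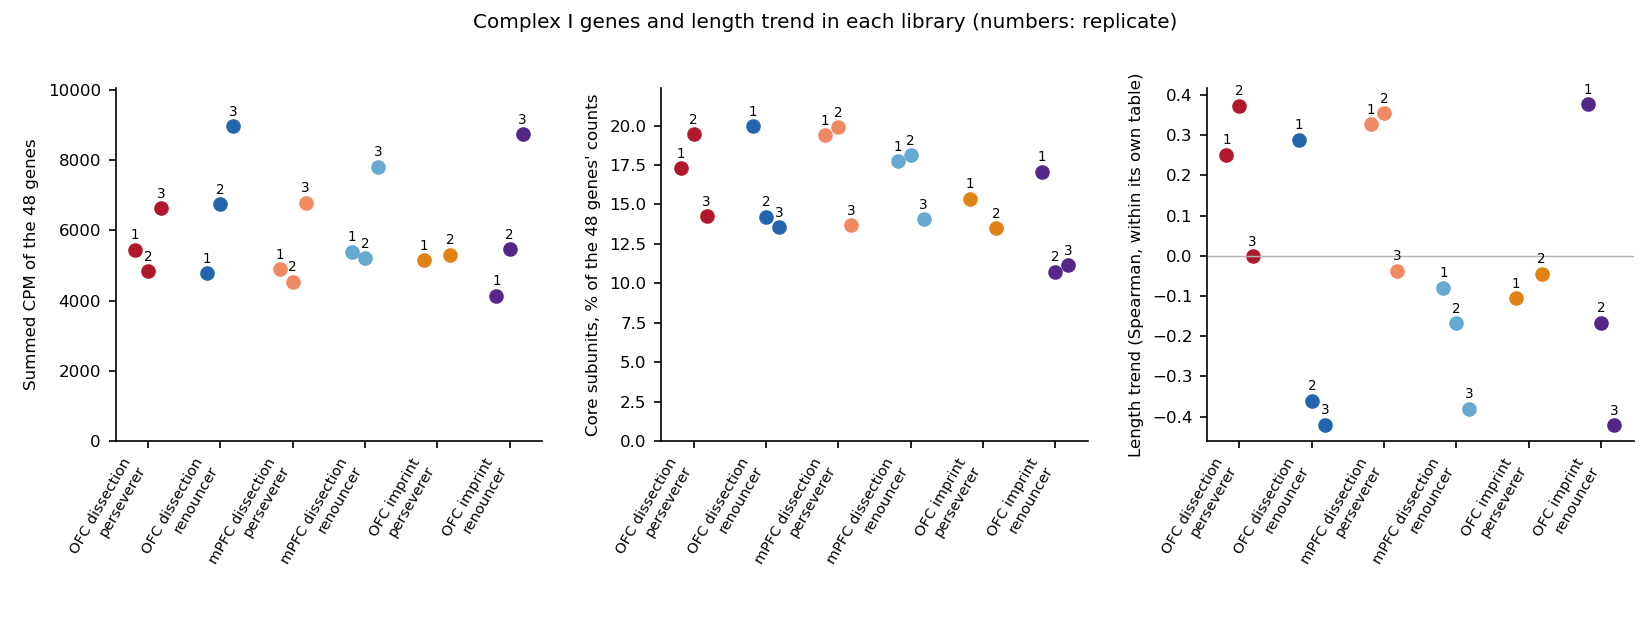
For each library (points, with the replicate number) in the 6 groups: the summed CPM of the 48 genes, the share of their counts held by the 7 core subunits, and the length trend, which is comparable only within a table (OFC dissections, mPFC dissections, imprints). Renouncer replicate 3 has the highest sum and the lowest length trend in each table.

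In the OFC dissections after oDASS, no complex I gene was called different between perseverers and renouncers, and neither was any other gene. Of 46 genes tested, 0 passed an adjusted p of 0.05 (edgeR's quasi-likelihood test, Benjamini-Hochberg over all 14621 genes tested), where 0% of all genes passed. At an unadjusted p under 0.05 there were 0 of the 46 and 377 of all genes, and DESeq2 and limma voom also called 0 of the 46. The estimates leaned to lower values in perseverers: 45 of 46 log2 fold changes were below 0 and their median was -0.21, while the median of all genes tested was 0.00. The median was -0.09 for the core subunits, -0.23 for the matrix arm accessory subunits, -0.24 for those of the membrane arm and -0.25 for the assembly factors. Leaving out renouncer replicate 3 brought the median of the 46 genes to -0.04, and leaving out renouncer replicate 1 brought it to -0.40. Ndufa10, a kinase-like membrane arm subunit, had the single positive value, 0.03 ± 0.14 (SE).

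Ndufaf5 had the lowest estimate, with 33.9, 27.0 and 39.5 CPM in the OFC perseverers, against 34.3, 41.2 and 71.2 CPM in the OFC renouncers. Its groups overlap, and renouncer replicate 3 stands highest. The log2 fold change was -0.53 ± 0.26 (edgeR's quasi-likelihood test, adjusted p = 0.951), and it was the smallest adjusted p of the 46, shared with others. Ndufs4, a matrix arm subunit whose loss causes Leigh-like disease in mice, had 87.3, 69.6 and 106.04 CPM in perseverers, against 83.5, 118 and 154 CPM in renouncers, a log2 fold change of -0.42 ± 0.24. Ndufaf6, an assembly factor, had -0.40 ± 0.25.

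With scaling within the table, perseverer and renouncer values did not overlap for 3 of the 46 genes, all lower in perseverers, where 3.72% of all genes tested showed that. None was separated in the higher direction, where 5.47% of all genes were. Ndufaf4, an assembly factor that acts with Ndufaf3, had 19.99, 15.9 and 19.8 CPM in perseverers, against 21.1, 23.1 and 26.1 CPM in renouncers (log2 fold change -0.32 ± 0.17). Ndufaf7, a methyltransferase, had 29.4, 25.2 and 26.3 CPM in perseverers, against 30.8, 29.6 and 31.9 CPM in renouncers. The groups of both genes lie next to each other with small gaps.

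The family's lean was set beside that of other genes of the same length. Over all genes tested, log2 fold change and length had a Spearman correlation of 0.44 (n = 8444 well expressed genes, mean log2 CPM above 4). Over the 46 members that correlation was 0.17. For genes of up to 600 bases the median was -0.31 over 10 members and -0.23 over all 245 genes. Over 600 and up to 1000 bases it was -0.22 over 15 members and -0.20 over 696 genes, and over 1000 and up to 2000 bases -0.13 over 14 members and -0.11 over 2910 genes. Over 2000 and up to 4000 bases it was -0.32 over 7 members and 0.01 over 5718 genes. When each library's length trend was removed, the median of the 46 genes was -0.03, with 19 above 0 and 27 below. The correlation was then 0.02 over all genes and -0.39 over the 46 members. The 7 members of over 2000 bases had a median of -0.33 after removal, and Ndufaf5 had -0.52 ± 0.26. Ndufaf5 and Ndufa11 are among them by a deposited length that exceeds their coding transcript more than 2-fold, and without both the median of the other 5 was -0.17 before and -0.14 after removal. No gene passed the test after removal either.

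In the mPFC dissections after oDASS, likewise, 0 of 46 genes passed the test (edgeR's quasi-likelihood test, Benjamini-Hochberg over 14375 genes, 0% of all genes called). At an unadjusted p under 0.05 there were 0 of 46 and 639 of all genes, and DESeq2 and limma voom called 0 of the 46. Of the 46 estimates 42 were below 0, with a median of -0.15 against 0.00 over all genes. The medians were -0.05 for the core subunits, -0.08 for the matrix arm, -0.16 for the membrane arm and -0.30 for the assembly factors. Without renouncer replicate 3 the median of the 46 genes was 0.02, and without perseverer replicate 3 it was -0.39. Positive estimates were those of Ndufaf1 (0.19 ± 0.20), Ndufaf8 (0.09 ± 0.23), Ndufa4l2 (0.03 ± 0.64) and Ndufa9 (0.01 ± 0.18, SE).

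The estimates of the assembly factors in the mPFC ran from -0.47 to 0.19, with 6 of 8 below 0. Ndufaf6 had 9.47, 6.202 and 9.59 CPM in perseverers, against 13.3, 10.5 and 11.8 CPM in renouncers, and Ndufaf7 had 27.98, 24.2 and 23.6 CPM in perseverers, against 27.8, 34.4 and 32.0 CPM in renouncers. The fit gave log2 fold changes of -0.47 ± 0.24 for Ndufaf6 and -0.30 ± 0.17 for Ndufaf7 (edgeR's quasi-likelihood test, adjusted p = 0.943 for both). With scaling within the mPFC table, the groups did not overlap for Ndufaf6 and Ndufaf7, 2 of 46 genes. In that lower direction 5.22% of all genes tested were separated. None of the 46 was separated in the higher direction (5.68% of all genes). With scaling over all 17 libraries, as in the CPM given above, Ndufaf7 overlapped. Ndufaf2, a factor of late assembly, had -0.42 ± 0.29, and Ndufab1 had -0.30 ± 0.20. Log2 fold change and length had a Spearman correlation of 0.03 over the 46 genes and 0.46 over 8511 well expressed genes. Without the length trend the median of the 46 genes was 0.04, with 27 above 0, while the assembly factors had a median of -0.22. The correlation over the 46 genes was then -0.29. Of the 46 genes, 41 had estimates below 0 in both regions. The OFC and mPFC libraries may come from the same mice, which the labels do not state, so the regions are not counted as independent.

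**Figure D3:**
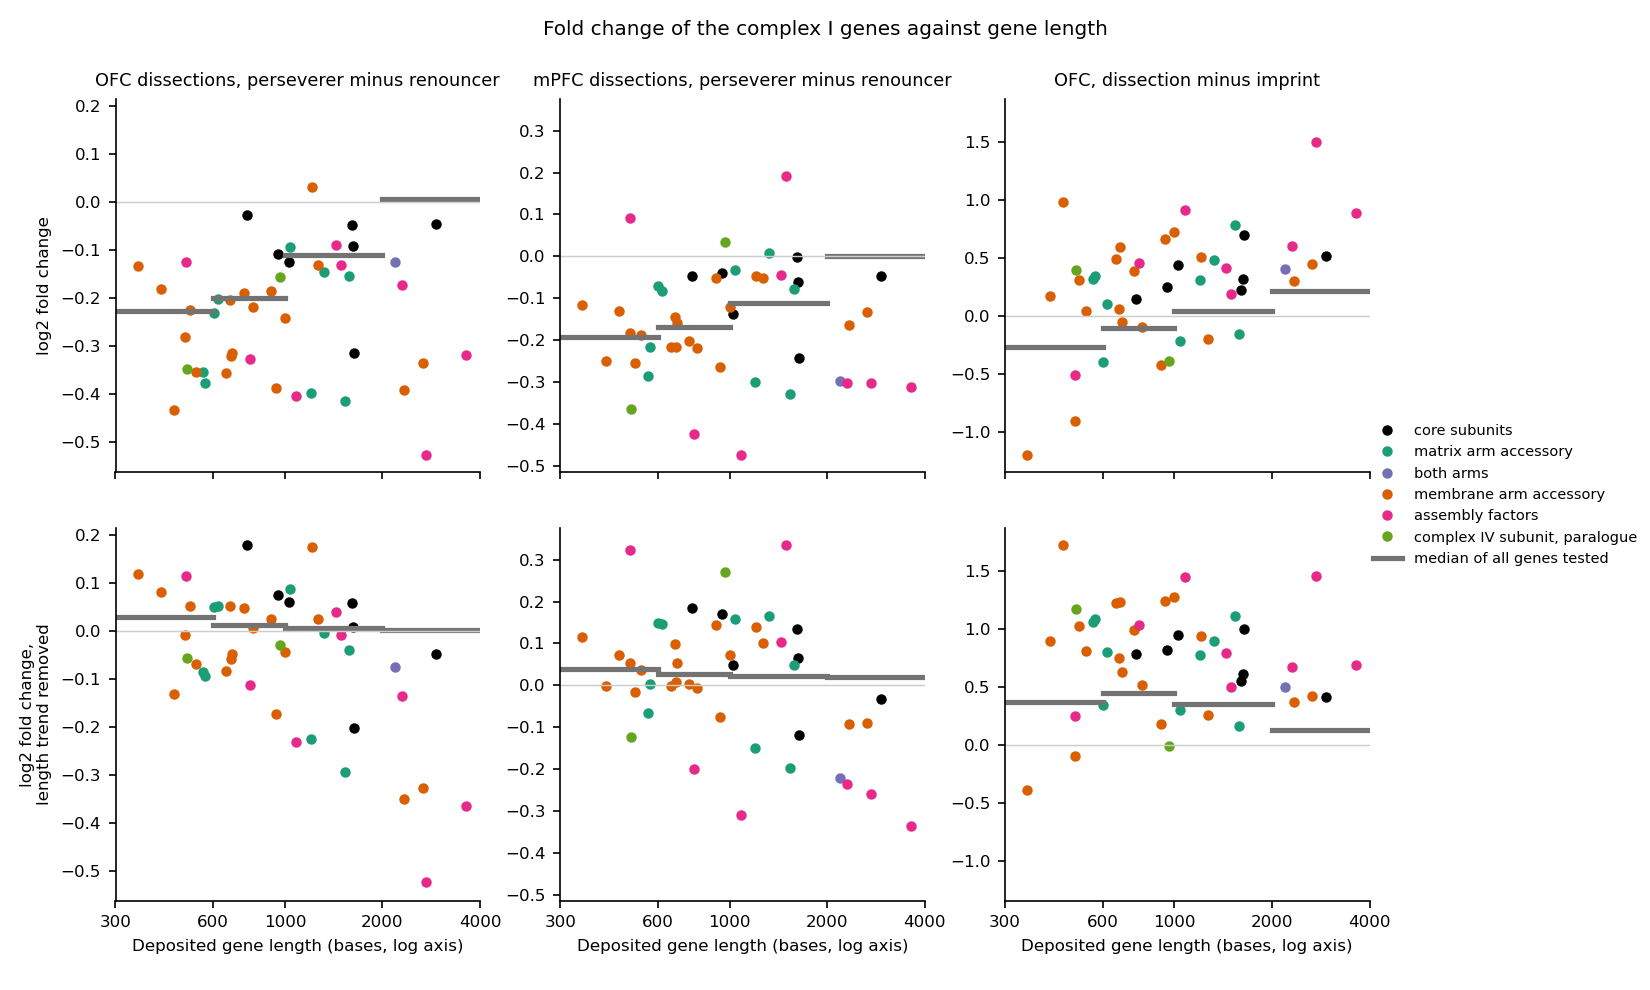
Log2 fold change of each tested complex I gene (points, coloured by role) against deposited gene length (log axis), before (top) and after (bottom) removal of each library's length trend; grey lines are medians of all genes tested in 4 length ranges. The columns are the OFC dissections, the mPFC dissections and the OFC dissections minus the imprints. In both dissection comparisons the points of up to 2000 bases lie around the grey lines, and the 7 of over 2000 bases lie below them at the top, those with doubtful deposited lengths (Ndufaf5, Ndufa11) included.

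In the imprints before oDASS, 0 of 45 genes passed the test between perseverers and renouncers (edgeR's quasi-likelihood test, Benjamini-Hochberg over 10530 genes, 0% of all genes called). At an unadjusted p under 0.05 there were 0 of 45 and 181 of all genes, and DESeq2 and limma voom called 0 of the 45. Ndufa4l2, with 0 to 23 counts, was not tested there. Of the 45 estimates 36 were below 0, with a median of -0.24 against -0.03 over all genes. The median was 0.03 without renouncer replicate 3 and -0.31 without renouncer replicate 1. Ndufaf1, an assembly factor of the membrane arm intermediate, had 14.1 and 11.5 CPM in perseverers, against 26.8, 25.5 and 30.5 CPM in renouncers, from 9 to 345 counts per library. Its groups did not overlap and its log2 fold change was -1.13 ± 0.63 (edgeR's quasi-likelihood test, adjusted p = 0.999885). Ndufb4 had -0.91 ± 0.76, Ndufb2 -0.61 ± 0.56 and Ndufb10 -0.57 ± 0.52, all of the membrane arm. Ndufs8, a core subunit with iron-sulfur clusters, had 0.37 ± 0.47, Ndufa9 0.31 ± 0.46, Ndufa10 0.27 ± 0.51 and Ndufs7 0.26 ± 0.45. With scaling within the imprint table, groups did not overlap for Ndufaf1, Ndufb10, Ndufb3 and Ndufc2 in the lower direction (8.02% of all genes) and for Ndufs7 in the higher direction (8.29% of all genes). With scaling over all 17 libraries Ndufb10 overlapped.

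Between regions after oDASS, with phenotype as a term, 0 of 46 genes passed the test, where 1.76% of all 15025 genes tested did, 0.892% higher and 0.865% lower in the OFC (edgeR's quasi-likelihood test). With the length trend removed it was again 0, where 2.26% of all genes passed, 1.08% higher and 1.18% lower. Of the 46 estimates 38 were above 0, that is higher in the OFC, with a median of 0.08 against 0.00 over all genes. The 5 oligodendrocyte markers summed to 2789 to 9416 CPM in the OFC dissections, against 1000 to 3916 CPM in the mPFC dissections, and the 8 neuronal markers to 3928 to 4989 CPM in the OFC, against 3233 to 4355 CPM in the mPFC. Their part in the lean between regions was not tested. The count at an unadjusted p under 0.05 was 0 of 46 and 2151 of all genes, and DESeq2 and limma voom called 0 of the 46. Ndufs1 came nearest, with 102, 101 and 95.6 CPM in OFC perseverers and 121, 91.7 and 98.8 CPM in OFC renouncers, against 89.8, 93.1 and 79.0 CPM in mPFC perseverers and 101, 86.8 and 84.4 CPM in mPFC renouncers. The regions overlap, and the log2 fold change was 0.19 ± 0.09 (edgeR's quasi-likelihood test, adjusted p = 0.352). Ndufb2 had 0.29 ± 0.22, while Ndufv1, the flavin-binding core subunit, had -0.09 ± 0.10 and Ndufs7 -0.07 ± 0.08. None of the 46 genes had non-overlapping regions, where 1.01% of all genes were separated as higher and 0.885% as lower. The fit took the dissections as unpaired, though the regions may come from the same mice.

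Between OFC dissections after oDASS and OFC imprints before it, 7 of 46 genes passed the test, 5 higher and 2 lower in the dissections (edgeR's quasi-likelihood test with phenotype as a term). Of all 15229 genes tested, 33.5% passed, 17.9% higher and 15.6% lower, against 15.2% of the family. With the length trend of each library removed, 67.4% of the family and 35.9% of all genes passed. That removal also raised the medians of all genes in the length ranges up to 2000 bases, given below. The part of gene length in the calls was not tested. The stage and the way of collection coincide and cannot be told apart. Of the 46 estimates 35 were above 0, with a median log2 fold change of 0.32, where the median of all genes was itself 0.16. With RLE scaling these medians were 0.18 for the 46 genes and 0.03 for all genes. By role 1 of 7 core, 1 of 9 matrix arm, 2 of 19 membrane arm subunits and 1 of 8 assembly factors were higher, and the 2 lower genes were both of the membrane arm. The summed neuronal markers were 3928 to 4989 CPM in the OFC dissections, against 1134 to 2203 CPM in the imprints. Summed over 5 markers, microglia had 184 to 275 CPM in the OFC dissections, against 352 to 675 CPM in the imprints. The 5 lymphocyte markers summed to at most 0.402 CPM in the OFC dissections and 65.99 to 1105 CPM in the imprints, and the 5 neutrophil markers to at most 1.13 CPM and 267 to 2998 CPM. Ms4a1 among the lymphocyte markers was at 0 in all OFC dissections, and Ly6g, Camp and Ltf among the neutrophil markers were at 0 in the perseverer imprints. The part of other cell types in the differences was not tested.

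Ndufaf5 had the highest fold change. It had 33.9, 27.0 and 39.5 CPM in dissected perseverers and 34.3, 41.2 and 71.2 CPM in dissected renouncers, against 16.6 and 17.9 CPM in perseverer imprints and 9.42, 9.91 and 20.1 CPM in renouncer imprints. All 6 dissections lay above all 5 imprints, which was seen for no other of the 46 genes and for 15.7% of all genes tested. No member was separated as lower in the dissections, where 8.52% of all genes were. The imprint values rest on 7 to 121 counts. The log2 fold change was 1.49 ± 0.32 (edgeR's quasi-likelihood test, adjusted p = 0.00177), and between 0.00218 and 0.00716 when each library was left out. Its promoter window, printed above, holds an NRF1 match, as does that of Ndufaf4, which had 0.88 and did not pass.

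Ndufs4 had 87.3, 69.6 and 106.04 CPM in dissected perseverers and 83.5, 118 and 154 CPM in dissected renouncers, against 49.7 and 55.0 CPM in perseverer imprints and 53.2, 72.2 and 76.3 CPM in renouncer imprints. The lowest dissection, perseverer replicate 2, lay below the highest imprints, renouncer replicates 2 and 3. Its log2 fold change was 0.78 ± 0.22 (edgeR's quasi-likelihood test, adjusted p = 0.0114, and 0.00926 to 0.0463 when each library was left out).

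Ndufb5, a membrane arm subunit, had 0.72 ± 0.22 (edgeR's quasi-likelihood test, adjusted p = 0.0198), and a transcript of the neighbouring Mrpl47 matches part of it. Ndufv2, the core subunit beside the flavin site, had 0.70 ± 0.23 (adjusted p = 0.0269). Ndufc2, a subunit at the membrane end of the complex, had 0.60 ± 0.20 (adjusted p = 0.0321). These calls depended on single libraries and on scaling: with RLE scaling the adjusted p was 0.0538 for Ndufb5, 0.0728 for Ndufv2 and 0.0967 for Ndufc2. Without imprint renouncer replicate 1 it was 0.0655, 0.0861 and 0.0946 for the same genes in that order, and without dissection renouncer replicate 3 it was 0.0733, 0.0995 and 0.111. The Ndufb5 call was also lost without imprint perseverer replicate 2 (0.0501), and the Ndufv2 call without dissection perseverer replicate 1 (0.0562). For Ndufc2 the call was lost in 6 of 11 such fits, the others being those without imprint perseverer replicate 2, dissection renouncer replicate 2 and dissection perseverer replicates 1 and 3 (0.0545 to 0.0795), and with limma voom (0.0584).

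Ndufa3 had 155, 126 and 202 CPM in dissected perseverers and 128, 178 and 231 CPM in dissected renouncers, against 363 and 460 CPM in perseverer imprints and 165, 438 and 512 CPM in renouncer imprints. Renouncer replicate 1, the imprint with the lowest haemoglobin share, lay within the dissections, and the other 4 imprints lay above them. Its log2 fold change was -1.20 ± 0.28 (edgeR's quasi-likelihood test, adjusted p = 0.00334, and 5.83e-05 to 0.0160 when each library was left out). Ndufa1, a small subunit of the membrane arm on the X chromosome, had 123, 94.6 and 149 CPM in dissected perseverers and 99.6, 154 and 197 CPM in dissected renouncers, against 195 and 258 CPM in perseverer imprints and 98.3, 402 and 347 CPM in renouncer imprints. Here too imprint renouncer replicate 1 lay with the dissections. The log2 fold change was -0.91 ± 0.31 (edgeR's quasi-likelihood test, adjusted p = 0.0310), and the call was lost in 7 of 11 fits that left out a library. These were the fits without imprint renouncer replicates 2 and 3, imprint perseverer replicate 2, dissection renouncer replicates 1 and 2 and dissection perseverer replicates 1 and 2, with adjusted p between 0.0529 and 0.0934. With limma voom the adjusted p of Ndufa1 was 0.218.

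**Figure D4:**
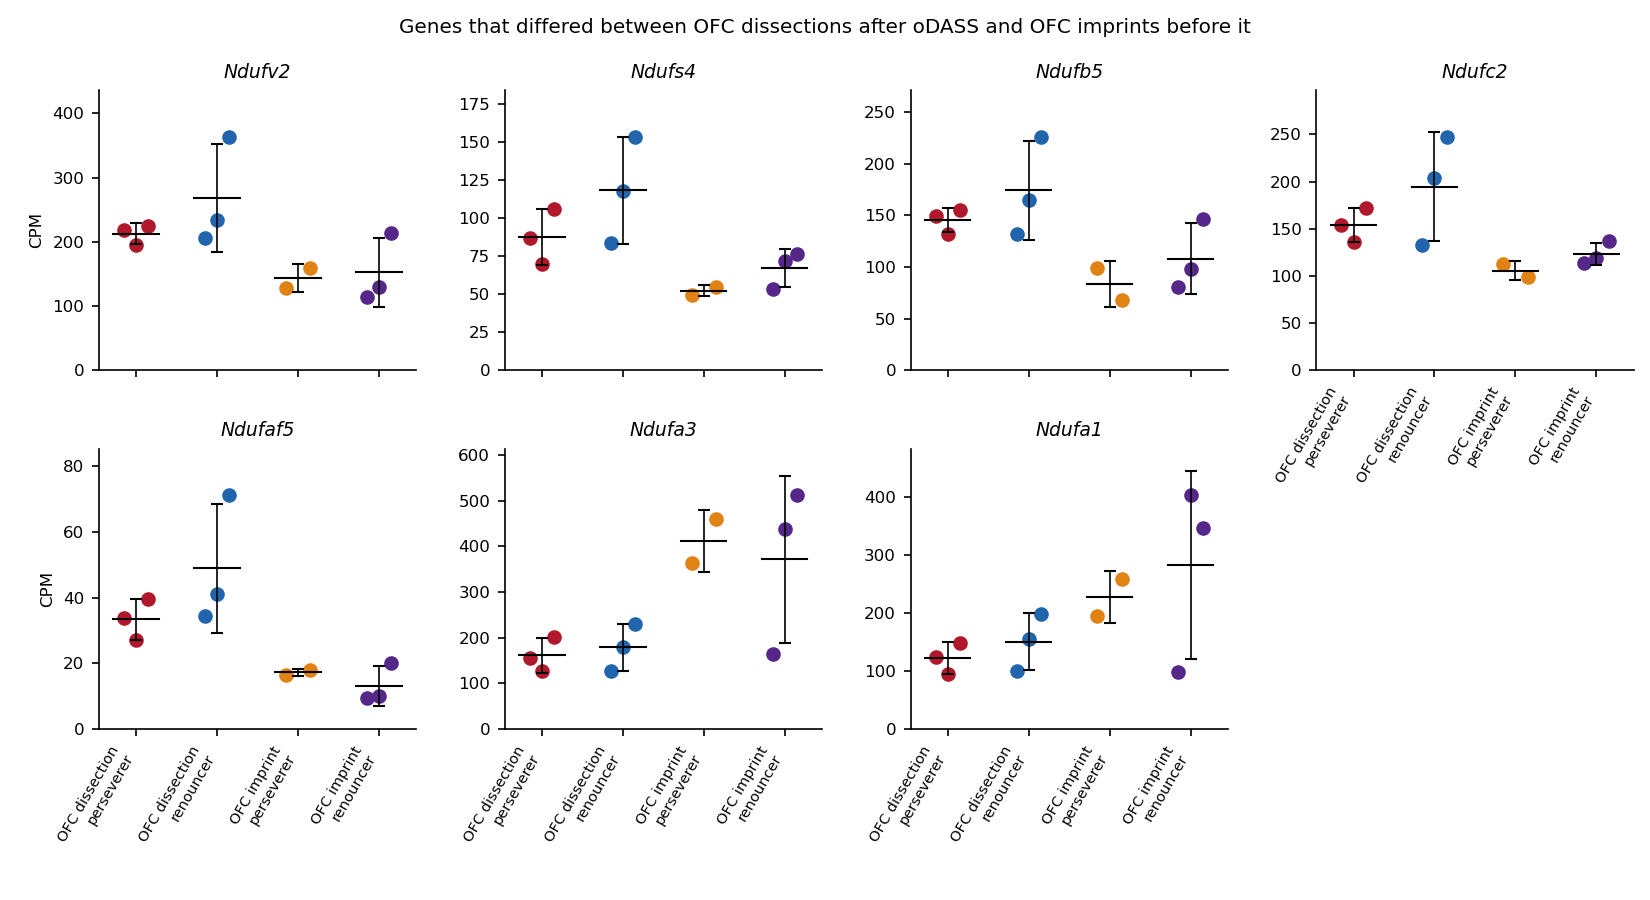
CPM of the 7 genes that passed the test between OFC dissections and OFC imprints, for each library (points) by group, with the mean (line) and SD (bars; n = 3, 3, 2 and 3 from left to right). Ndufaf5 is higher in all dissections than in all imprints, and Ndufa3 and Ndufa1 are higher in 4 of 5 imprints than in most or all dissections.

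Removing the length trend changed the calls of this comparison. Ndufa3 and Ndufa1 have 351 and 493 bases. Genes of up to 600 bases had a median log2 fold change of 0.24 over 10 members and -0.27 over all 271 genes. With the length trend of each library removed, 31 of 46 members passed as higher and 0 as lower, with a median of 0.79, where 19.4% of all genes passed as higher and 16.5% as lower. Of the 7 genes called before, 5 remained called, and Ndufa3 (-0.38, adjusted p = 0.0932) and Ndufa1 (-0.09, adjusted p = 0.762) were lost in edgeR's quasi-likelihood test. Removal also moved the median of all genes of up to 600 bases to 0.37, so it did not bring the short genes to 0. The 10 members of that range then had 0.96. Over 600 and up to 1000 bases the median went from 0.14 to 0.80 over 15 members and from -0.10 to 0.45 over 754 genes. Over 1000 and up to 2000 bases it went from 0.37 to 0.78 over 14 members and from 0.04 to 0.35 over 3089 genes. Shares of all genes called are therefore not shares of genes of like length. The count of members called thus runs from 7 to 31 with this choice.

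No gene of the 46 passed a test of the difference between effects. The interaction of phenotype with region had 0 calls (0% of all genes, smallest adjusted p of a member 0.999986 in edgeR's quasi-likelihood test), with a median of -0.06; 225 of all genes and 0 members had an unadjusted p under 0.05. For phenotype by stage the count was also 0 (0% of all genes), with a median of -0.06 against 0.12 over all genes; 1336 of all genes and 0 members had an unadjusted p under 0.05. DESeq2 and limma voom called 0 members in both, while DESeq2 called 80 of all genes for phenotype by stage. Ndufaf1 had a stage interaction of 0.94 ± 0.47 (edgeR's quasi-likelihood test, adjusted p = 0.583) and Ndufaf5 one of -0.98 ± 0.59 (adjusted p = 0.652).

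Other genes of the pathway were read from lists of 11 assembly factors without the family name and 8 regulators of mitochondrial biogenesis. Mitochondrially encoded subunits were not analysed here. In the 3 comparisons of phenotypes, between regions and in both interactions, 0 of either list passed the test. In the OFC, Timmdc1, a factor of the membrane arm, had -0.50 ± 0.23 and Tmem70 -0.40 ± 0.19, and in the mPFC Tmem70 had -0.43 ± 0.18 (log2 fold change, SE). Ppargc1b, a coactivator of biogenesis genes, had 0.36 ± 0.19 in the OFC and 0.69 ± 0.21 in the mPFC (edgeR's quasi-likelihood test, adjusted p = 0.951 and 0.943). Of the 8 regulators 6 were above 0 and 2 below in the OFC, and 4 above and 4 below in the mPFC. Tfam had -0.19 ± 0.15 in the OFC and Gabpa -0.29 ± 0.19 in the mPFC. The dissections against the imprints gave 2 higher assembly factors of 11 (18.2%, against 17.9% of all genes), Tmem70 (1.11 ± 0.27, adjusted p = 0.00479) and Tmem186 (1.65 ± 0.53, adjusted p = 0.0238, edgeR's quasi-likelihood test). Of the 8 regulators 12.5% were called in each direction, against 17.9% of all genes higher and 15.6% lower: Esrra, the nuclear receptor ERR alpha, was higher (1.38 ± 0.31, adjusted p = 0.00276) and Yy1 lower (-0.98 ± 0.33, adjusted p = 0.0291, edgeR's quasi-likelihood test).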

How the data were processed

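Bulk RNA was measured in 17 libraries, prepared with Smart-seq v4 ultra low input and Nextera kits per the labels' protocols. What was deposited are raw counts per gene, whole numbers with no normalization by the authors, and a length in bases for each gene. FastQC 0.11.8 and the build mm10 are named in the submitters' processing notes. Aligner, counter, annotation and the way length was defined were not given in the sources used here. Complex I genes and the lists of other genes and cell markers were chosen with earlier results of these data known, so no test was run over a list.

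Counts were fitted over all genes in R 4.3.3 with edgeR 4.0.16 (filterByExpr, TMM scaling, robust quasi-likelihood test, both sides, Benjamini-Hochberg adjusted p under 0.05). Phenotypes were compared within a table, regions over the 12 dissections and stages over 11 OFC libraries, both with a phenotype term, and interactions as contrasts of 4 group means. The SE is approximate, the absolute log2 fold change over the square root of F. CPM and RPKM were scaled by TMM over all 17 libraries. The length trend was removed as an offset per library, a spline with 4 degrees of freedom fitted on genes whose mean log2 CPM exceeded 4. Scripts were tested on simulated data. Alternatives used DESeq2 1.42.0, limma 3.58.1 voom, RLE scaling, no filter, a threshold of 0.1, removal of haemoglobin genes, the sample code numbers split at 100, the replicate block and leaving out each library. The removal of a straight-line length trend, and of a trend over all genes tested, was chosen after seeing the data.

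Genes named are, per comparison, up to 10 called in each direction by smallest p, filled up to 4, with the core subunits, Ndufs4, Ndufab1, Ndufa4, Ndufa4l2, the extremes of level and length, genes with few counts, and up to 3 of each other list. Genes whose groups did not overlap were named after their values were seen, as was Ndufs6 for its promoter. Ndufb1 and the mitochondrially encoded genes were not analysed here, and some values of single genes are not reported here. Promoters are those of RefSeq, GRCm38.p6, and positions are 1-based.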

Additional observations from a re-analysis of the deposited data

How the results depend on the processing

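No complex I gene passed the test in the 3 comparisons of phenotypes, between regions or in the interactions, under any alternative run. Between dissections and imprints, 7 of the 46 genes passed (33.5% of all genes), against 4 with RLE scaling (32.3%), 8 with limma voom (34.3%), 9 with DESeq2 (39.9%), 9 of 48 without the filter (28.8%), 14 at a threshold of 0.1 (41.7%), and 31, 28 and 30 with the length trend removed as a spline (35.9%), as a straight line (35.9%) or as estimated over all genes tested (35.5%). The median of 0.32 became 0.79, 0.70 and 0.78 in these 3 fits, in which Ndufb11 (0.18, 0.084 and 0.16) and Ndufaf8 (0.25, 0.17 and 0.36) turned positive. Ndufa1 turned positive only in the last of them (0.036). Leaving out each library gave 4 to 12 called genes (27.6% to 36.4% of all genes), 4 without dissection renouncer replicate 3 or dissection perseverer replicate 1 and 12 without imprint renouncer replicate 3, and medians of 0.14 to 0.46. The median ran from -0.40 to -0.04 for phenotype in the OFC dissections, -0.39 to 0.02 in the mPFC, -0.31 to 0.03 in the imprints, -0.01 to 0.17 between regions, -0.27 to 0.17 for phenotype by region and -0.33 to 0.16 for phenotype by stage. Other genes changed sign without a library: Ndufa10 in the OFC dissections (-0.024 to 0.070), Ndufa9 (-0.10 to 0.14), Ndufaf8 (-0.12 to 0.25) and Ndufa4l2 (-0.32 to 0.24) in the mPFC, Ndufa10 (-0.37 to 0.78) and Ndufa9 (-0.051 to 0.66) in the imprints and Ndufaf3 between regions (-0.043 to 0.043). Phenotype by region had Ndufa10 (-0.020 to 0.13), Ndufa11 (-0.45 to 0.11), Ndufab1 (-0.015 to 0.31), Ndufaf2 (-0.26 to 0.37) and Ndufaf8 (-0.43 to 0.013), and phenotype by stage had Ndufb10 (-0.058 to 0.54). Ndufa4l2 in the mPFC was -0.056 with limma voom, Ndufaf3 between regions was 0.0016 without the filter, and Ndufs7 in phenotype by stage was 0.0063 with a straight-line trend removed. The cause of these changes was not tested.

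With the replicate number as a block, 6 of the 46 genes were called between dissections and imprints (25.8% of all genes), Ndufc2 being lost (adjusted p = 0.0875, edgeR's quasi-likelihood test), and 0 elsewhere. The imprint median was 0.07, and Ndufa4l2 in the mPFC was -0.010. Same-numbered libraries did not all deviate together: over genes, their deviations correlated at 0.13, -0.58 and 0.22 between phenotypes in the OFC, 0.04, 0.48 and 0.35 in the mPFC, and 0.40 and 0.34 in the 2 pairs of imprints. Between regions they were 0.25, 0.81 and 0.80 in perseverers and 0.29, -0.18 and 0.54 in renouncers. The correlations between phenotypes do not bear on whether the regions share mice. Same-numbered OFC and mPFC libraries carry neighbouring sample codes, so they may be paired, which the labels do not state. The main fits took them as unpaired, and their p-values between regions would be off if the libraries are paired. Every OFC perseverer, 3 of 3, correlated best with its own number in the mPFC, but 1 of 3 OFC renouncers did. In the other direction, 2 of 3 mPFC perseverers and 2 of 3 mPFC renouncers correlated best with their own number in the OFC. Over all genes 264 were called between regions, against 685 with DESeq2 and 1130 with the block, and 0 for phenotype by stage against 80 with DESeq2.

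Depth limits the imprints, where 4 of 5 libraries hold at most 1306627 counts outside haemoglobin.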
